A study of Homo sapiens with 8 samples.

Results

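The genes described here encode 38 proteins, most of which help to build ribosomes in the nucleolus, while some, as PPRC1 and MYBBP1A, are regulators. Their RNA was measured on 8 expression arrays from MNNG/HOS, a human osteosarcoma line derived from HOS cells by chemical transformation. The members were taken from a list of symbols, and a gene entered when a probe with its symbol exceeded an intensity of 20, the floor of the deposited values, on at least 2 of the 8 arrays. The brightest such probe stood for the gene. This gave 35 of the 38 listed genes, among 12759 genes measured in the same way. WDR43 and GNL3 had no probe under their symbols here, and the single probe of NPM1 lay at the floor on all arrays. The labels form 4 groups of 2 arrays, treated with DMSO as the solvent control, with JQ1, with rapamycin or with JQ1 and rapamycin. JQ1 keeps BET bromodomain proteins off acetylated histones. Rapamycin blocks mTORC1, a kinase complex that couples nutrients to growth. The labels give 7.5 mM for JQ1, a unit that could not be checked, and 12.5 nM for rapamycin, and no treatment time is stated. MNNG/HOS is 1 cell line. Separate cultures for the replicate arrays are not documented, so that the p-values reflect array-to-array spread of a possibly technical kind.

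A ribosome is assembled from ribosomal RNA and ribosomal proteins, and most early steps take place in the nucleolus. RNA polymerase I transcribes the large precursor RNA, guide RNA particles of the box C/D and box H/ACA kinds modify its bases and sugars, and separate sets of assembly factors then fold and cut the precursors of the small and large subunits. The factor MYC is known to bind E-box sites, often the palindrome CACGTG, near the starts of many of these genes, and mTORC1 promotes ribosome production in growing cells.

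Both deposited tables hold the same 8 arrays, but they name 6 of them differently. Each array of the non-normalized table had a rank correlation of at least 0.997 with 1 array of the value table, and no other pair passed 0.9795. Only DMSO array 1 and combination array 2 carried the same name in both. The replicate 2 arrays of the value table are, in the other table's names, the rapamycin and combination arrays. Its rapamycin and combination arrays are there the JQ1 and combination arrays, and its JQ1 and combination arrays are there the replicate 2 arrays. Which naming is right was not settled here. The value table, which belongs to the sample records, is used below unless the other names are stated. Values for single genes and the calls made from them hold for those names, and under the other names several members gain or lose a call. Some of these changes are given beside the genes or in a later paragraph, and not all are listed.

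Of the markers of the osteoblast lineage and mesenchyme, 9 of 12 passed the floor, including RUNX2, COL1A1, SPP1 and VIM. SP7, ALPL and COL1A2 did not pass. RUNX2, a factor that specifies osteoblasts, read 96.5 and 110.9 with DMSO and 95.7 and 75.5 with rapamycin. It lay at the floor of 20 on all 4 arrays with JQ1, which under the other names are the replicate 2 arrays. IBSP and BGLAP, markers of mature osteoblasts, were at or near the floor, with highest values of 22.1 and 30.8. Among the markers of other cell types, 2 of 7 epithelial, 2 of 7 haematopoietic and 0 of 4 endothelial genes passed. The epithelial genes were EPCAM, which ran from 146.8 to 224.9 over the arrays, and CLDN4, from the floor of 20 to 62.6. The summed intensity of the 2 haematopoietic genes, CD14 and LYZ, ran from 78.8 to 506.2 per array and averaged 409.7, 271.9, 148.3 and 122.9 in the DMSO, JQ1, rapamycin and combination groups. Its part in the results was not tested. PTPRC, the defining leukocyte marker, was at the floor.

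Promoters are shown for members with an entry in the promoter table that were called lower with both drugs than with DMSO. The calls are those of the fit without or with the replicate block described below, under the names of the value table. Each run covers 50 bases on either side of the annotated start, from the RefSeq annotation of GRCh38.p14, 5′ to 3′ on the gene's strand. Capitals mark CACGTG, which reads the same on both strands.
POLR1B, chr2:112541986-112542085, plus strand: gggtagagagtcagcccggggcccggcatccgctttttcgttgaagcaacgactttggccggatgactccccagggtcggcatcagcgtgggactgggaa
DKC1, chrX:154762814-154762913, plus strand: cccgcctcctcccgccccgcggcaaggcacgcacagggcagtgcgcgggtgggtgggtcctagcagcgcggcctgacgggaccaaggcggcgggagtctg
GAR1, chr4:109815712-109815811, plus strand: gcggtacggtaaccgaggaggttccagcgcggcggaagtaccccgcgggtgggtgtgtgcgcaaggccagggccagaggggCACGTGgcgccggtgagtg
BYSL, chr6:41921449-41921548, plus strand: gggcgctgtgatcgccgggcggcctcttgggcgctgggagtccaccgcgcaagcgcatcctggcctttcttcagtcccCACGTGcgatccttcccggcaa
PNO1, chr2:68157838-68157937, plus strand: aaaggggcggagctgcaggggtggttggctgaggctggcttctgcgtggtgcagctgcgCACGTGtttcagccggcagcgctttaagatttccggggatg
NOP2, chr12:6568242-6568341, minus strand: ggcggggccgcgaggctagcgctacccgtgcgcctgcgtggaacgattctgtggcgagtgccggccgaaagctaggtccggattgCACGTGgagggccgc
NOP16, chr5:176388549-176388648, minus strand: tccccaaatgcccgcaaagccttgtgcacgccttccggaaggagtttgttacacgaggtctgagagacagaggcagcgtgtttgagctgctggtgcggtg
PPAN, chr19:10106173-10106272, plus strand: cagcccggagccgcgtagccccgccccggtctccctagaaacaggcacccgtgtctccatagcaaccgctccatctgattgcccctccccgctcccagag
DDX21, chr10:68956597-68956696, plus strand: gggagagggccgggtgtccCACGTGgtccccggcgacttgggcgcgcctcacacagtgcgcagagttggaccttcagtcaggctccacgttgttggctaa
PPRC1, chr10:102132990-102133089, plus strand: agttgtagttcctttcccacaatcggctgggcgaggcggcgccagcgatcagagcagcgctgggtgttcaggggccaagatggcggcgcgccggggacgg

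Of these 10 genes, 5 held CACGTG and 5 did not. Entries were found for 32 of the 38 members, with 40 promoters in all because 8 members have several annotated starts. CACGTG occurred in 14 of the 40 promoters of 300 bases (35.0%), against 7.26% of all 35116 promoters in the table and 9.03% of the 14669 promoters of genes tested on the arrays. Counting genes in place of promoters gave 10 of 32 members with the first listed start (31.2%), and 14 of 32 with the last listed start or with any start (43.8%). The corresponding shares of all genes were 7.43%, 7.19% and 8.77%. The counts per gene were made before promoters were taken as the unit, and all are given because GAR1, DDX21, LYAR and GNL3 have the motif at 1 of their starts only. For GAR1 and DDX21 the start with the motif is the one shown. Among 114 promoters of other ribosome biogenesis genes, 32 held it (28.1%). A match is a description of the sequence and not a measured binding site. In the comparison of both drugs with DMSO the median log2 difference was −0.63 over the 12 measured members with the motif at any start and −0.41 over the 17 without, and 5 members of each kind passed the test in the replicate-blocked fit. The medians with and without the motif were −0.065 and −0.028 for JQ1 alone, and −0.236 and −0.212 for rapamycin alone. Between all arrays with and without rapamycin the order was the reverse, −0.154 with the motif and −0.410 without. A link between motif and response was not tested.

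As a group the members were bright. Their median intensity was 1026.4 and 843.2 on the DMSO arrays, 886.4 and 623.5 with JQ1, 758.2 and 654.5 with rapamycin, and 591.2 and 428.1 with both drugs. The combination arrays were the lowest of the 8, and replicate 2 was below replicate 1 in every group. Over all 12759 genes the median per array stayed between 122.5 and 139.6. In bulk RNA, fewer cells that carry a transcript and less of it per cell cannot be told apart.

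**Figure D1:**
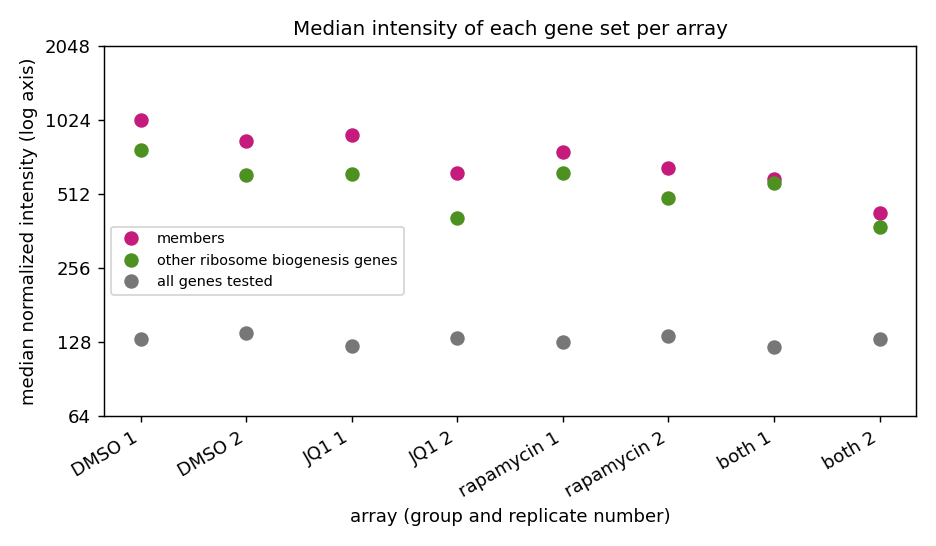
Median normalized intensity (log axis) of the 35 members, of 114 other ribosome biogenesis genes and of all 12759 genes on each of the 8 arrays, 1 point per gene set and array. The members run from 1026.4 on DMSO array 1 to 428.1 on combination array 2, while the median of all genes stays near 130 on every array.

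Differences are given as log2 differences with their standard error (SE), from limma fitted to all 8 arrays, with Benjamini-Hochberg adjusted p-values over 12759 genes and a threshold of 0.05. A second fit held the replicate number as a block, since arrays with the same number deviated together, and its adjusted p is called blocked below. Under the other table's names the value table's replicate number parts arrays with rapamycin from those without it. Against DMSO the median of the members was −0.07 with JQ1, −0.27 with rapamycin and −0.48 with both drugs, and that of all genes was 0.00, 0.00 and −0.01. The log2 difference was below 0 for 22, 29 and 33 of the 35 members, where 49.4%, 49.6% and 50.7% of all genes lay below 0. These 3 comparisons share the DMSO arrays.

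With both drugs, 2 members fell relative to DMSO, PPRC1 and PPAN, where 4.25% of all genes were called lower. In the blocked fit 12 of 35 were lower (34.3%), where 11.2% of all genes were. They were POLR1B, DKC1, GAR1, BYSL, PNO1, NOP2, NOP16, PPAN, RRS1, URB2, DDX21 and PPRC1. No member was called higher in either fit, where 2.93% and 7.77% of all genes were. Without the filter on low values no member was called. The arrays of both groups did not overlap, with the combination lower, for 17 members (26.1% of all genes) and, with the combination higher, for 0 (22.8%).

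With JQ1 alone no member passed (2.83% of all genes did), while 3 members had an unadjusted p under 0.05 (18.1% of all genes). PPAN, GAR1 and RRS1 were lower in the blocked fit, where 6.70% of all genes were called lower. Under the other names RRS1 passed this blocked test and GAR1 and PPAN did not (blocked adjusted p from limma 0.0185, 0.416 and 0.249). With rapamycin alone no member passed in either fit (0.0235% of all genes without the block and 0.345% with it), while 3 had an unadjusted p under 0.05 (9.89%). Arrays with rapamycin lay below DMSO without overlap for 11 members (18.4% of all genes).

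**Figure D2:**
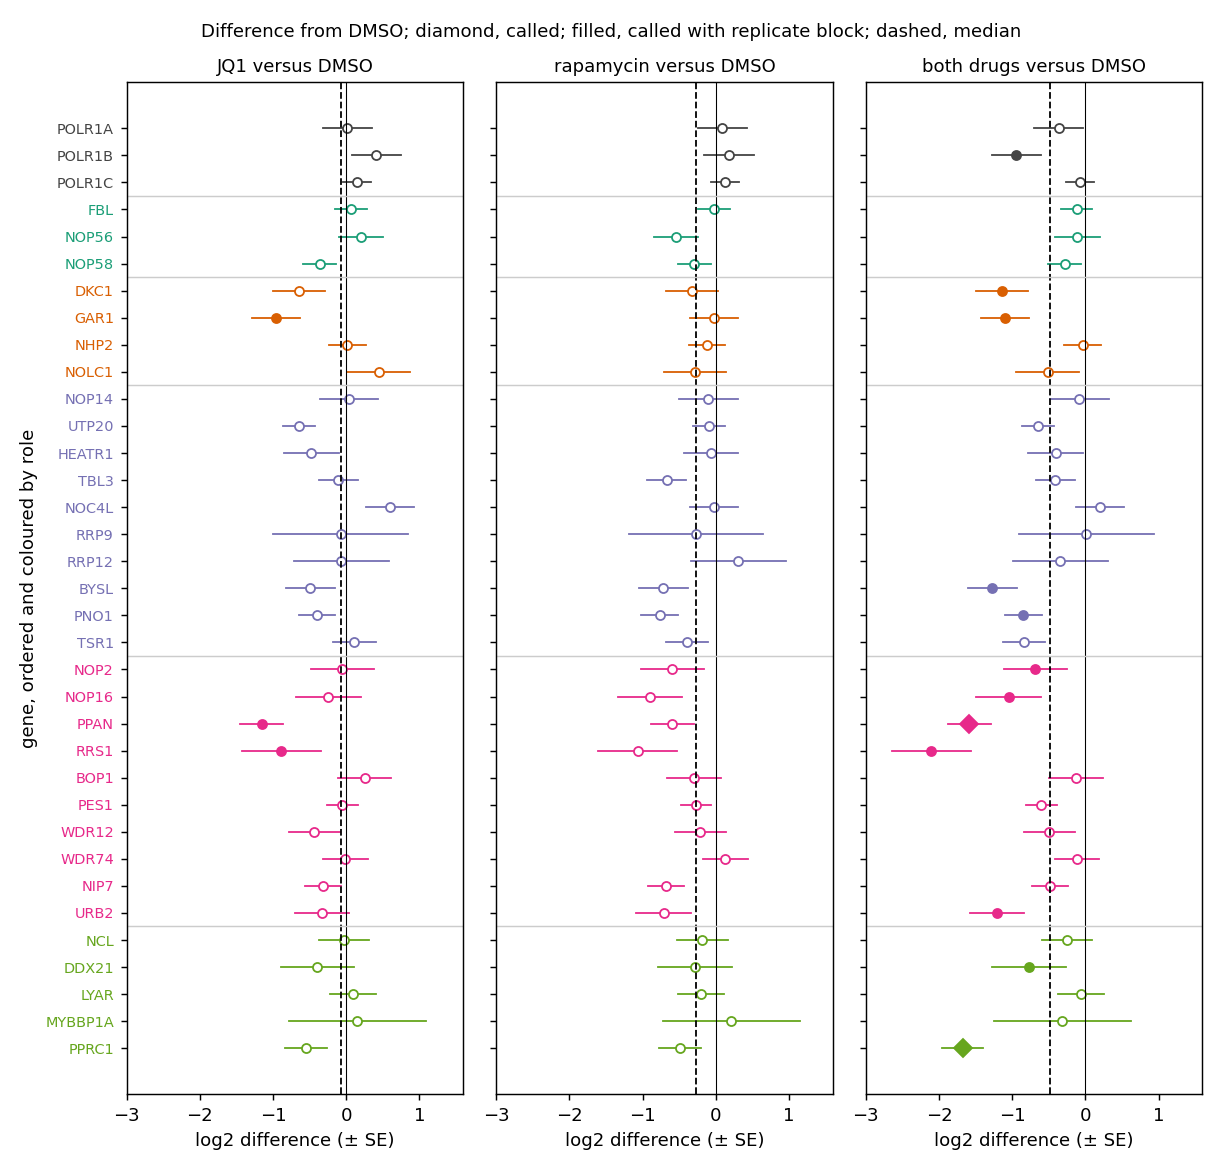
Log2 difference from DMSO (points, with bars of 1 SE) of each member in 3 panels, for JQ1, rapamycin and both drugs, ordered and coloured by role. Diamonds mark PPRC1 and PPAN, called without the block, filled points mark members called with it, and the dashed line is the median of the members, −0.07, −0.27 and −0.48.

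Of the RNA polymerase I subunits, POLR1A, the catalytic subunit, ran from 22.0 to 40.9 over the 8 arrays, and POLR1C, which RNA polymerase III shares, from 1786.5 to 2278.3. These intensities are from different probes and set no order between the genes. POLR1B forms the active site together with POLR1A. POLR1B read 63.6 and 44.1 with DMSO, 90.7 and 54.8 with JQ1, 70.1 and 51.3 with rapamycin, and 31.5 and 24.0 with both drugs. Only the combination arrays lay below all the others. Its log2 difference from DMSO was −0.95 ± 0.34 (SE, n = 2 arrays per group, limma adjusted p = 0.147), and the blocked adjusted p was 0.0127. Its second probe gave −0.71 with both drugs, −0.01 with JQ1 and −0.23 with rapamycin. The probe used gave 0.41 with JQ1 and 0.18 with rapamycin, signs that the second probe did not share. With the probe used, POLR1B also had the lowest interaction value of the members, −1.54 ± 0.48 (limma adjusted p = 0.999). The interaction is the JQ1 difference with rapamycin minus that without it, and it reached the threshold for 0 members and 0 genes in limma without the block, with 1 member at an unadjusted p under 0.05 (3.51% of all genes). With the block 1 gene (0.00784%) and no member passed. Under the other names POLR1B gave −0.62 ± 0.31 with both drugs (limma adjusted p = 0.344, blocked 0.146). Its interaction there was 0.13 ± 0.43 (blocked adjusted p from limma 0.987), the opposite sign.

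No box C/D protein passed a test with any drug under the names of the value table. FBL, the methyltransferase of these particles, ran from 3122.0 to 4025.1 over the 8 arrays, a log2 difference of −0.12 ± 0.22 with both drugs. NOP58, a scaffold protein, gave −0.28 ± 0.23 (limma adjusted p = 0.527). NOP56, its partner and the brightest of this role, read 5084.4 and 3784.7 with DMSO, 5944.3 and 4280.1 with JQ1, 3757.0 and 2416.4 with rapamycin, and 4420.6 and 3736.5 with both. The rapamycin arrays were the lowest of their replicate. Under the other table's names NOP56 gave −1.004 ± 0.25 with both drugs (limma adjusted p = 0.104, blocked 0.0122) and passed the blocked test of the rapamycin average (blocked adjusted p 0.033). The medians of the 3 genes were 0.06, −0.30 and −0.12 with JQ1, rapamycin and both.

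Among the box H/ACA proteins, which carry out pseudouridylation, DKC1 and GAR1 passed the blocked test with both drugs and NHP2 did not, under the names of the value table. DKC1, the pseudouridine synthase, read 5057.9 and 2992.2 with DMSO, 2911.9 and 2127.3 with JQ1, 3637.5 and 2642.6 with rapamycin, and 2172.3 and 1439.0 with both. GAR1, a core protein of the particle, read 2668.9 and 1941.5 with DMSO, 1596.9 and 854.4 with JQ1, 2368.0 and 2110.6 with rapamycin, and 1120.2 and 1008.0 with both. For GAR1 all 4 arrays that received JQ1 lay below all 4 that did not (9.91% of all genes). With both drugs the log2 difference from DMSO was −1.14 ± 0.36 for DKC1 (limma adjusted p = 0.107, blocked 0.0069) and −1.10 ± 0.33 for GAR1 (0.0956, blocked 0.019). With JQ1 alone GAR1 gave −0.96 ± 0.33 (limma adjusted p = 0.18, blocked 0.0418), and its 4 probes ran from −0.83 to −1.76. NHP2, another core protein and the brightest of this role, ran from 7701.0 to 10862.7, and its difference with both drugs was −0.04 ± 0.25 (limma adjusted p = 0.964). Under the other names NHP2 gave −0.67 ± 0.16 (limma adjusted p = 0.0943, blocked 0.0159). Without JQ1 replicate 2, GAR1 gave −0.51 with JQ1 alone in the fit without the block. NOLC1, a chaperone of the particles, read 469.8 and 305.7 with DMSO, 698.8 and 379.1 with JQ1, 350.4 and 277.2 with rapamycin, and 365.3 and 192.7 with both. The combination arrays overlapped with those of DMSO and rapamycin and lay below both JQ1 arrays. Under the other names NOLC1 gave −1.33 ± 0.20 with both drugs (limma adjusted p = 0.0357, blocked 0.0033).

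In the small subunit role 10 of 11 listed genes were measured, and BYSL and PNO1, which act late in its assembly, were lower with both drugs in the blocked fit. BYSL, the brightest of this role, read 1356.9 and 1055.4 with DMSO, 1161.3 and 623.5 with JQ1, 758.2 and 697.8 with rapamycin, and 575.7 and 428.1 with both. PNO1 read 999.3 and 843.2, then 708.8 and 681.6, 633.1 and 459.6, and 591.2 and 439.9 in the same order. For these genes every rapamycin and combination array lay below both DMSO arrays. The log2 differences with both drugs were −1.27 ± 0.33 for BYSL (limma adjusted p = 0.0693, blocked 0.0105) and −0.85 ± 0.25 for PNO1 (0.0928, blocked 0.0211). TSR1, a late factor related to GTPases, gave −0.84 ± 0.29 (limma adjusted p = 0.137, blocked 0.0845).

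UTP20, a large scaffold protein of the early precursor, lay at the floor on all 4 arrays with JQ1. It read 30.4 and 32.5 with DMSO and 34.9 and 24.7 with rapamycin, so it was at least 1.57-fold lower with JQ1 and with both drugs than with DMSO, computed against the floor of 20. UTP20 passed the filter only through the 4 arrays without JQ1, so the direction of its JQ1 difference was fixed by its entry. Its JQ1 average (limma adjusted p = 0.0511, blocked 0.0248) is therefore no support for a fall. The other probes of UTP20 lay at the floor on all arrays. HEATR1, another scaffold protein, TBL3, a WD-repeat factor, and NOP14 gave −0.40 ± 0.38, −0.41 ± 0.27 and −0.08 ± 0.40 with both drugs. NOC4L, a partner of NOP14, was the member with the largest JQ1 difference above 0 among those whose arrays did not overlap, reading 115.3 and 94.0 with DMSO and 197.7 and 125.9 with JQ1 (0.60 ± 0.33, limma adjusted p = 0.414). It read 121.3 and 86.4 with rapamycin and 146.1 and 98.0 with both, and its 3 probes did not share a sign.

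RRP9, a protein of the U3 particle, and RRP12, known in yeast as an export factor, differed more between replicates than the rest of this role. RRP9 read 155.9 and 83.2 with DMSO, 154.6 and 75.5 with JQ1, 185.4 and 48.3 with rapamycin, and 261.3 and 50.6 with both. RRP12 read 351.1 and 176.6, 360.9 and 156.8, 357.7 and 266.0, and 352.2 and 109.3 in that order. In each group replicate 2 was the lower array, and the differences with both drugs, 0.01 ± 0.92 and −0.34 ± 0.65, were smaller than their errors. Under the other names RRP9 gave −1.18 ± 0.18 with both drugs (limma adjusted p = 0.0388, blocked 0.00348) and −1.22 ± 0.13 for the rapamycin average (0.00879, blocked 0.000675). RRP12 gave −1.01 ± 0.31 with both drugs there (0.161, blocked 0.0283).

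Of the 10 measured large subunit factors, 5 were lower with both drugs in the blocked fit. PPAN, a factor of early large subunit precursors, read 187.7 and 149.9 with DMSO, 93.2 and 60.9 with JQ1, 133.3 and 92.9 with rapamycin, and 53.0 and 59.0 with both. Both combination arrays lay below every other array. PPAN fell 3-fold with both drugs, a log2 difference of −1.58 ± 0.29 (limma adjusted p = 0.0267, blocked 0.00574). Leaving out 1 array at a time kept this call in 2 of 8 fits. With JQ1 alone the difference was −1.16 ± 0.29 (limma adjusted p = 0.0964, blocked 0.0236). A readthrough transcript joins PPAN with its neighbour P2RY11, and the probe was not checked against it.

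RRS1, which brings a small ribosomal RNA particle into the large subunit, had the largest log2 difference of all members. It read 2621.4 and 1451.4 with DMSO, 1409.5 and 788.3 with JQ1, 1326.8 and 654.5 with rapamycin, and 654.7 and 314.6 with both. Each replicate on its own stepped down from DMSO to the single drugs and from those to the combination, and replicate 2 was always the lower array. With both drugs the difference was −2.10 ± 0.54 (limma adjusted p = 0.0652), a 4.3-fold lower level, and the blocked adjusted p was 0.0014. With JQ1 alone it gave −0.89, or −0.46 without DMSO replicate 1 and −0.47 without JQ1 replicate 2, in the fit without the block.

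NOP2, a methyltransferase of large subunit RNA, read 3036.1 and 1773.5 with DMSO, 2943.6 and 1698.0 with JQ1, 2066.5 and 1141.9 with rapamycin, and 1699.8 and 1225.3 with both. NOP16, an assembly factor, read 2634.8 and 1534.3, 2302.6 and 1251.9, 1314.1 and 885.9, and 1264.4 and 748.0 in that order. URB2, a large nucleolar protein, read 398.8 and 237.0, 311.6 and 191.5, 215.9 and 163.0, and 161.9 and 109.6. These 3 genes were lower on the arrays with rapamycin than on those without it within each replicate. With both drugs they gave −0.69 ± 0.43 (limma adjusted p = 0.408, blocked 0.039), −1.05 ± 0.44 (0.209, blocked 0.00851) and −1.21 ± 0.37 (0.105, blocked 0.00611). In the fit without the block, NOP2 gave −0.30 without DMSO replicate 1, −0.45 without combination replicate 2 and −1.07 without DMSO replicate 2. NOP16 gave −0.66 and −0.67 without the first and second of these arrays. With rapamycin alone NOP16 gave −0.90 ± 0.44 (limma adjusted p = 0.593, blocked 0.0747).

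BOP1, PES1 and WDR12 form 1 complex that acts on the large subunit precursor, and none of them passed a test in a drug comparison under the names of the value table. BOP1, the brightest of this role, read 5267.4 and 3712.7 with DMSO, 6567.9 and 4213.4 with JQ1, 4341.3 and 2971.4 with rapamycin, and 5163.9 and 3166.5 with both. With both drugs PES1 gave −0.60 ± 0.21 (limma adjusted p = 0.14, blocked 0.0693) and WDR12 −0.50 ± 0.35. Under the other names BOP1 gave −1.03 ± 0.17 with both drugs (limma adjusted p = 0.0427, blocked 0.00341), WDR12 −0.98 ± 0.30 (0.157, blocked 0.0049) and PES1 −0.68 ± 0.24 (0.195, blocked 0.0355). NIP7, which acts in precursor processing, gave −0.48 ± 0.25. WDR74 read 69.9 and 61.9 with DMSO and 70.8 and 73.0 with rapamycin, the single member whose rapamycin arrays lay above DMSO without overlap (0.13 ± 0.30, limma adjusted p = 0.973).

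Of the multifunctional genes, PPRC1, a transcriptional coactivator related to PGC-1, fell with both drugs. It read 782.1 and 473.5 with DMSO, 428.1 and 403.2 with JQ1, 502.7 and 372.4 with rapamycin, and 187.9 and 192.5 with both. The combination arrays lay below the other 6. PPRC1 was 3.2-fold lower with both drugs than with DMSO, a log2 difference of −1.68 ± 0.28 (limma adjusted p = 0.0218, blocked 0.00501). The call was made in 0 of 8 fits that left out 1 array, where the difference ran from −2.04 to −1.32. Against rapamycin alone the combination gave −1.19 ± 0.28 (limma adjusted p = 0.0786, blocked 0.0216).

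DDX21, a helicase that binds ribosomal RNA, read 3718.3 and 2077.2 with DMSO, 3036.1 and 1475.7 with JQ1, 3050.2 and 1711.2 with rapamycin, and 2131.0 and 1246.4 with both. The groups overlapped, because the lower DMSO array lay below the higher combination array. The difference with both drugs was −0.77 ± 0.50 (limma adjusted p = 0.424, blocked 0.0227). In the fit without the block it was −0.35 without DMSO replicate 1, −0.38 without combination replicate 2, −1.19 without DMSO replicate 2 and −1.16 without combination replicate 1. NCL, an abundant nucleolar RNA-binding protein and the brightest of this role, ran from 4105.2 to 7485.1 and gave −0.25 ± 0.34. LYAR, a nucleolar zinc-finger protein, gave −0.06 ± 0.32. Under the other names NCL gave −0.81 ± 0.17 (limma adjusted p = 0.0735, blocked 0.0103) and LYAR −0.78 ± 0.20 (0.108, blocked 0.0133). MYBBP1A, which is known to repress RNA polymerase I, read 101.6 and 21.0 with DMSO, 87.4 and 30.2 with JQ1, 76.0 and 37.7 with rapamycin, and 69.0 and the floor of 20 with both. Its replicates differed more than its groups, and under the other names the rapamycin average was −1.08 ± 0.17 (limma adjusted p = 0.0282, blocked 0.00264).

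**Figure D3:**
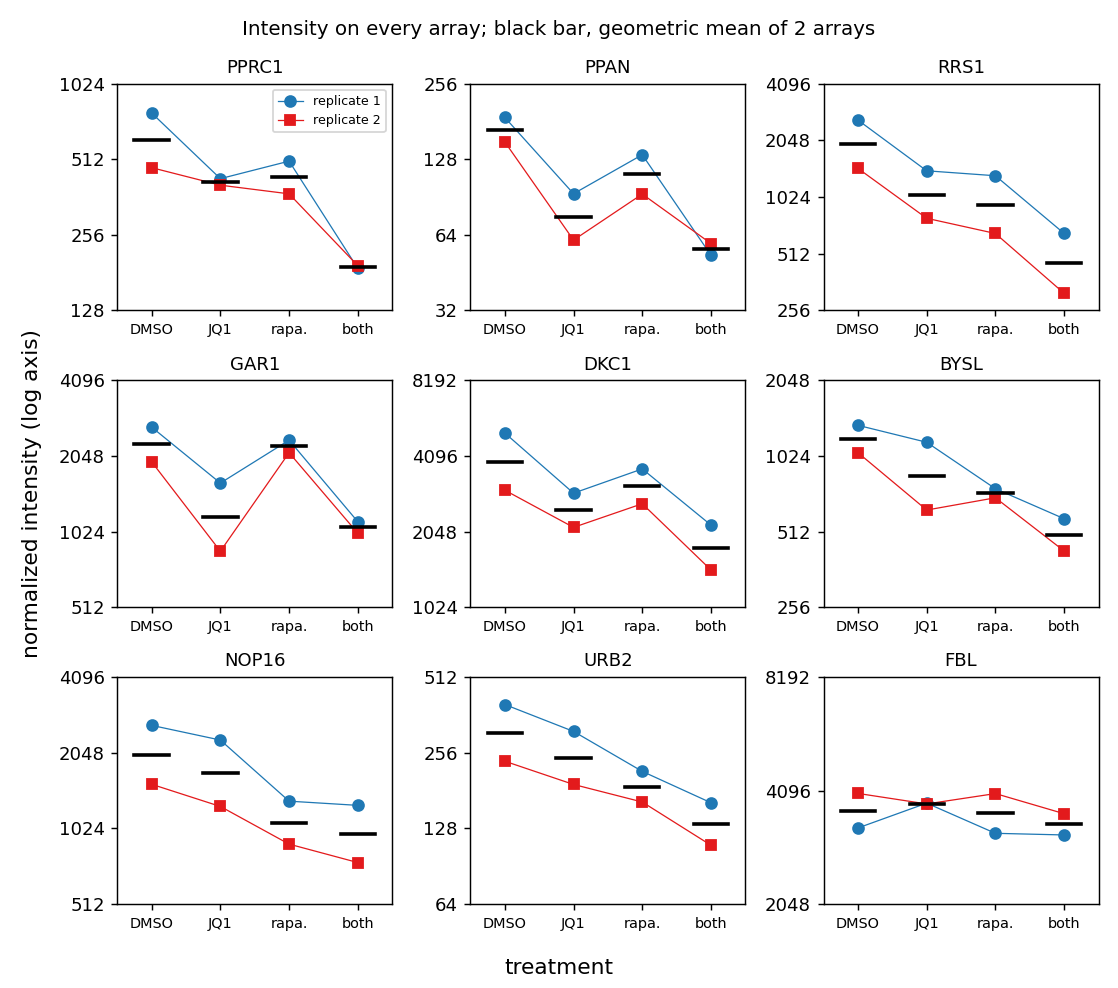
Normalized intensity (log axis) of 9 members on every array, by treatment, with replicate 1 as circles, replicate 2 as squares, lines joining arrays of 1 replicate number and black bars for the geometric mean of 2 arrays. PPRC1 and PPAN are lowest on both combination arrays, RRS1 steps down from 2621.4 to 654.7 in replicate 1 and from 1451.4 to 314.6 in replicate 2, and FBL stays between 3122.0 and 4025.1.

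The combination was also compared with each drug alone. Against rapamycin the median of the members was −0.24 (all genes −0.02), and no member passed without the block (2.62% of all genes did), while 5 had an unadjusted p under 0.05 (18.3%). In the blocked fit POLR1B, DKC1, GAR1, PPAN, RRS1 and PPRC1 were lower, where 7.05% of all genes were. Without combination replicate 2, RRS1 moved from −1.04 to −0.51 and DKC1 from −0.81 to −0.51 in the fit without the block. RRS1 gave −0.53 without rapamycin replicate 1 and −1.57 without combination replicate 1. Against JQ1 the median was −0.38 (all genes 0.00), and limma called 0 members and 0 genes without the block, with 4 members at an unadjusted p under 0.05 (8.28% of all genes). With the block it called 2 genes (0.0157%), no member. The lowest values there were −1.36 ± 0.34 for POLR1B, −1.22 ± 0.54 for RRS1 and −1.13 ± 0.28 for PPRC1 (limma adjusted p = 0.418, 0.633 and 0.428).

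Averaging over the other drug sets 4 arrays against 4. GAR1, PPAN and PPRC1 were lower on arrays with JQ1 than without (limma adjusted p = 0.0353, 0.0208 and 0.038), where 7.38% of all genes were called lower. In the blocked fit DKC1, UTP20, RRS1 and DDX21 joined them, where 13.8% of all genes were lower. UTP20 had passed the filter only through arrays without JQ1, so its call is no support. The DDX21 value of −0.44 ran from −0.18 without JQ1 replicate 2 to −0.70 without JQ1 replicate 1. Leaving out DMSO replicate 1, rapamycin replicate 1 or combination replicate 2 gave −0.23, −0.23 and −0.25. On arrays with rapamycin no member passed without the block (0.0941% of all genes did), while 12 had an unadjusted p under 0.05 (13.9%). The blocked fit called 7 lower, POLR1B, BYSL, NOP2, NOP16, RRS1, URB2 and PPRC1, where 1.83% of all genes were lower. NOP2 moved from −0.61 to −0.40 without rapamycin replicate 2. RRS1 had the largest rapamycin difference, −1.14 ± 0.38 (limma adjusted p = 0.251, blocked 0.0169). Of the 114 other genes, 4 were called lower there with the block (3.51%). Under the other names POLR1B and PPRC1 did not pass the blocked test on arrays with rapamycin (blocked adjusted p from limma 0.295 and 0.162).

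The members also differed by replicate number, in a contrast added after the data were seen. The replicate 2 arrays had a median log2 difference of −0.46 from the replicate 1 arrays, against 0.03 for all genes. In limma with the block, 15 of 35 members were lower on replicate 2 (42.9%), where 4.38% of all genes were. For 25 members replicate 2 was the lower array in all 4 groups (14.1% of all genes). The largest values were −1.65 ± 0.21 for MYBBP1A, −1.56 ± 0.26 for RRP9, −1.08 ± 0.21 for RRP12 and −0.94 ± 0.12 for RRS1 (limma adjusted p = 0.00625, 0.0134, 0.0203 and 0.0063). The others called were POLR1B, DKC1, NOLC1, NOP14, NOC4L, NOP2, NOP16, BOP1, WDR12, URB2 and DDX21. The labels do not say what the replicate number stands for.

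**Figure D4:**
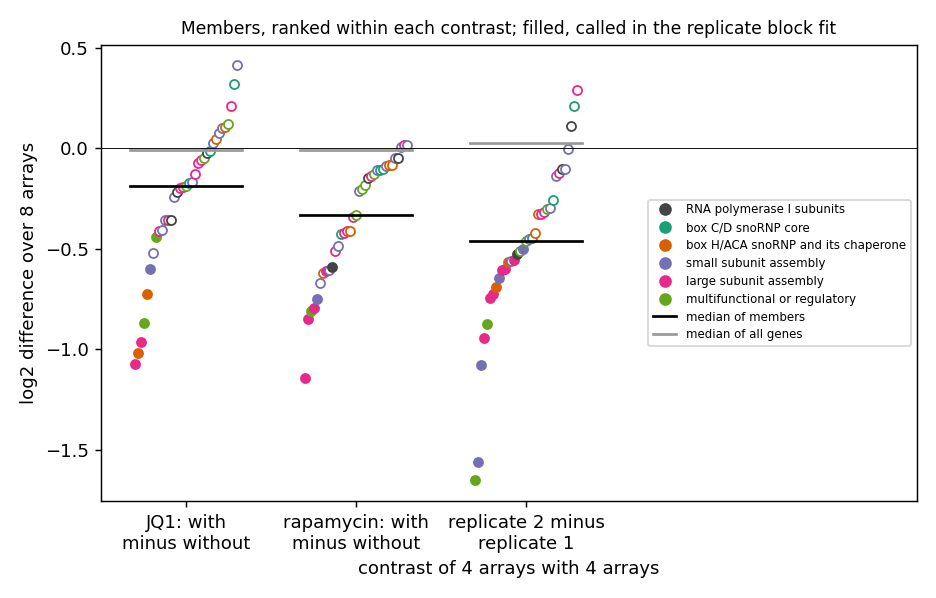
Log2 difference of each of the 35 members in 3 contrasts of 4 arrays with 4 arrays: with against without JQ1, with against without rapamycin, and replicate 2 against replicate 1. Points are members ranked within a contrast and coloured by role, filled where called in the blocked fit (7, 7 and 15), and bars are the medians of the members (black; −0.19, −0.33 and −0.46) and of all genes (grey).

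Under the array names of the non-normalized table, the contrast just given as replicate 2 against replicate 1 is the rapamycin contrast. With those names and the non-normalized signals, 6 members were lower on arrays with rapamycin in limma without the block, where 2.61% of all genes were called, and 22 with it (18.5% of all genes). The 6 were NOLC1, NOP14, RRP9, NOP2, BOP1 and MYBBP1A. With both drugs against DMSO the median of the members was −0.81, and 5 members were called lower (1.66% of all genes), or 26 with the block (19.4%). The 5 were NOLC1, RRP9, NOP2, NOP16 and BOP1. NOP2 gave −1.57 ± 0.20 (limma adjusted p = 0.0238, blocked 0.00116) and NOP16 −1.69 ± 0.27 (0.0392, blocked 0.000685). RRS1 gave −2.05 ± 0.57 there (limma adjusted p = 0.13, blocked 0.00047), PPRC1 −1.05 ± 0.51 (0.337, blocked 0.0124) and PPAN −0.76 ± 0.54 (0.527, blocked 0.0562). The calls of PPRC1 and PPAN without the block were therefore not made under these names. The single pair of arrays whose names both tables share, combination array 2 and DMSO array 1, was set side by side after the data were seen, with 1 array each and no test. It sets a replicate 2 array against a replicate 1 array under either naming, so drugs and replicate number cannot be told apart. Under the names of the value table the members' median was −0.46 for replicate 2 against replicate 1. On that pair 32 of 35 members were lower on the combination array (47.0% of all genes), 17 at least 2-fold lower (10.6%) and 0 at least 2-fold higher (10.4%). The median log2 difference was −0.99 for the members and 0.00 for all genes, and RRS1 was lowest at −3.06.

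**Figure D5:**
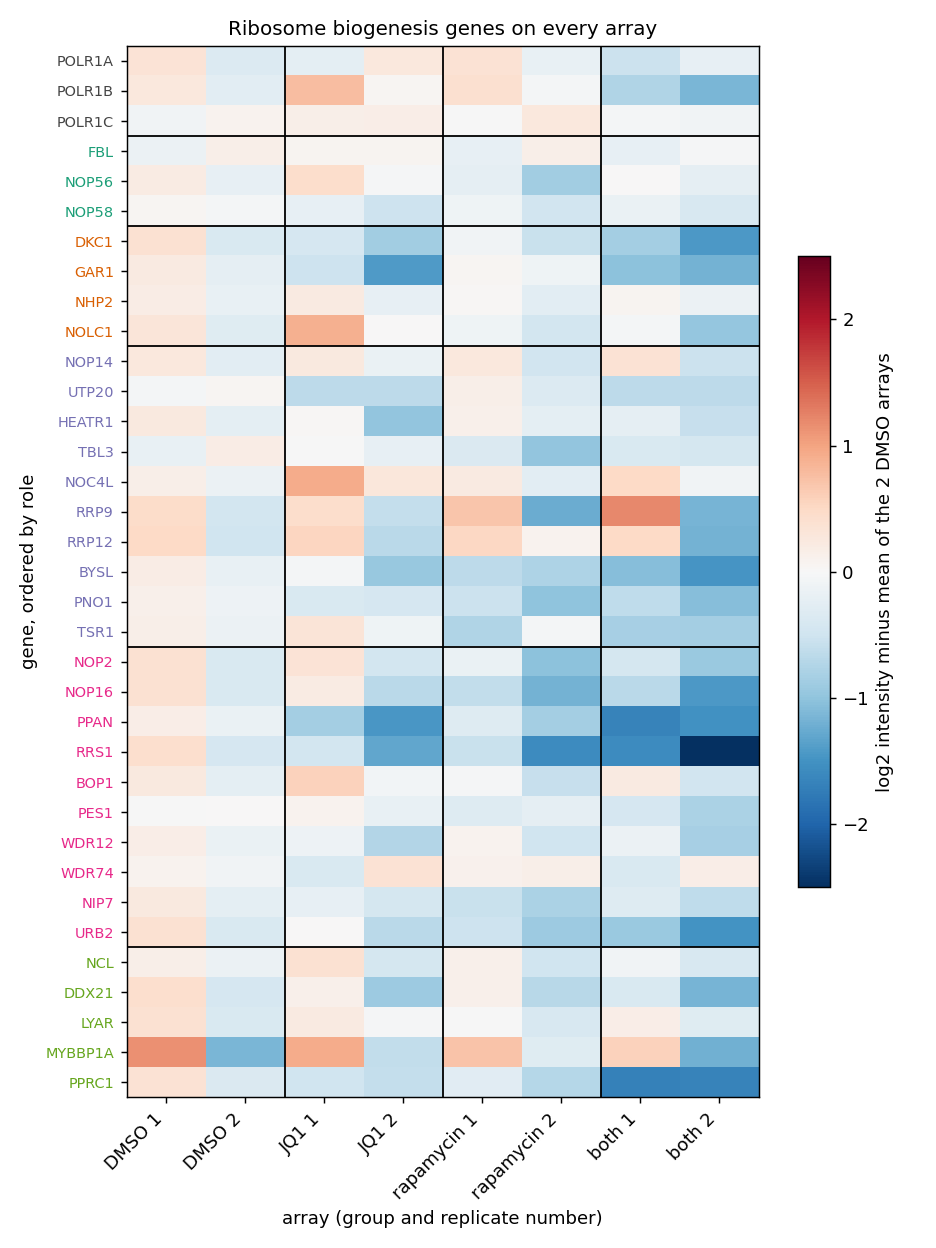
Log2 intensity of each member (rows, ordered by role) on each array (columns, by group and replicate number) minus its mean on the 2 DMSO arrays, blue where lower and red where higher. RRS1, PPAN and PPRC1 are among the darkest blue rows on the combination arrays, and replicate 2 columns are bluer than replicate 1 columns in RRP9, RRP12 and MYBBP1A.

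Other ribosome biogenesis genes, 114 measured of 118 listed, gave medians of −0.27, −0.20 and −0.45 with JQ1, rapamycin and both drugs. With both drugs 6 fell (5.26%, against 4.25% of all genes), and 29 were lower in the blocked fit (25.4%, against 11.2%). The smallest p-values there belonged to DDX54, a large subunit helicase (−2.32 ± 0.26, limma adjusted p = 0.00802), NLE1, a large subunit factor (−1.06 ± 0.18, 0.023), whose combination arrays were both at the floor, DDX47, a small subunit helicase (−1.46 ± 0.25, 0.0235), and NOL9, a kinase that acts on RNA ends (−1.74 ± 0.32, 0.0258). NLE1 was therefore at least 2.09-fold lower with both drugs than with DMSO and at least 2.28-fold lower than with rapamycin, computed against the floor of 20. With both drugs DDX54 read 22.3 and 28.1 and NOL9 read 20.1 and 27.1. NOL9 read 30.4 and 21.2 with JQ1. These values lie near the floor, which may limit the differences of both genes. With JQ1, DDX54 and NOL9 fell (−1.41 ± 0.26 and −1.61 ± 0.32, limma adjusted p = 0.0422 and 0.0497), 1.75% against 1.77% of all genes. In the blocked fit 24 genes were lower (21.1%, against 6.70%). DDX47 and NAT10, an RNA acetyltransferase, were next (limma adjusted p = 0.0712 and 0.103). Against rapamycin alone, NLE1 and DDX54 fell with the combination (limma adjusted p = 0.0288 and 0.047), 1.75% against 1.68% of all genes. In the blocked fit 15 were lower (13.2%, against 7.05%), among them DDX47 and DDX52. On arrays with JQ1 12 fell (10.5%, against 7.38% of all genes), led by DDX54, NLE1, DDX47 and DDX52. On those with rapamycin DDX54, PWP2, FTSJ3 and UTP15 were lower with the block (blocked adjusted p from limma 0.0398, 0.0353, 0.0338 and 0.0409). These were 3.51%, against 1.83% of all genes. None passed with rapamycin alone (0.0235% of all genes without the block and 0.345% with it).

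MYC itself read 105.2 and 120.0 with DMSO, 276.5 and 175.4 with JQ1, 302.7 and 168.3 with rapamycin, and 975.8 and 235.1 with both drugs. Every treated array lay above both DMSO arrays, and the 2 combination arrays differed widely. With both drugs the log2 difference was 2.09 ± 0.65 (limma adjusted p = 0.105, blocked 0.0231). The values for JQ1 and rapamycin alone were 0.97 ± 0.65 and 1.01 ± 0.65 (limma adjusted p = 0.53 and 0.723). Under the other table's names the same readings are 105.2 and 276.5 with DMSO, 302.7 and 975.8 with JQ1, 120.0 and 175.4 with rapamycin, and 168.3 and 235.1 with both drugs. There only the JQ1 arrays lay above both DMSO arrays.

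Where a member had several probes the choice of the brightest could matter. Of the 14 members with more than 1 passing probe, all probes shared a sign in 10 for both drugs against DMSO, in 8 for the JQ1 average and in 12 for the rapamycin average. For both drugs the sign was not shared in NOP56, NHP2, NOC4L and NCL. The second probe of NCL gave 0.22, and the probes of NHP2 that were not used gave 0.12 to 0.28.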

How the data were processed

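Labelled cRNA from 8 MNNG/HOS samples was hybridised to expression arrays, per the labels' protocols, and the probe identifiers are Illumina's. The authors deposited 2 tables of linear probe intensity. The non-normalized intensity was deposited with a background already subtracted, as values fall below 0. The other deposited table gives intensity after a normalization that no source used here describes, and its lowest value is 20. No detection p-values were used.

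Values were log2-transformed. Of 47304 probes, 23860 exceeded 20 on at least 2 arrays, and 17016 of these had 1 symbol, updated through gene identifiers to RefSeq names. Differences were fitted with limma 3.58.1 in R 4.3.3, with a mean per group over all 8 arrays (4 residual and 2.92 prior degrees of freedom), and the fit was tested on simulated data. The number of arrays limits the precision. Folds against a group at the floor are bounds.

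Same-numbered arrays deviated together from their group means, with correlations of 0.423 to 0.549 in all 6 pairs of groups. The titles' replicate numbers were therefore taken to pair the arrays, and these correlations and the blocked calls were first seen together. Under the other table's names these numbers part arrays with rapamycin from those without it, so the correlations cannot tell pairing from a rapamycin difference. All blocked calls under the names of the value table rest on this pairing. Alternatives were the block, other filters, the mean of a gene's probes, centred arrays, the non-normalized table (offset 50, quantile normalization) under either naming, a trended robust variance and leaving out each array.

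Every member is named. Values on all arrays are given for members called in a comparison, the 3 largest non-overlapping differences each way for each treatment, and the brightest member per role; of other genes, up to 4 called ones with the smallest p per comparison are named. The members and lists were chosen with earlier results of these data known. Sequences are from RefSeq, GRCh38.p14; RRS1 and BOP1 are not shown.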

Additional observations from a re-analysis of the deposited data

Results flagged for a closer look

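POLR1C, the subunit shared by RNA polymerases I and III, moved in opposite directions with JQ1 in the absence and presence of rapamycin, and no arrays overlapped. It read 1786.5 and 2019.4 with DMSO against 2097.2 and 2118.6 with JQ1, and 1885.9 and 2278.3 with rapamycin against 1824.3 and 1788.6 with both drugs. The difference of the 2 effects was −0.35 ± 0.27 (SE) on the log2 scale, and the interaction did not pass (limma adjusted p = 0.999). Its second probe differed from DMSO by 0.11 with JQ1, −0.19 with rapamycin and −0.12 with both drugs, so that the JQ1 effect lay above 0 with and without rapamycin. Under the other table's array names the interaction was 0.19 ± 0.27 (limma adjusted p = 1), the opposite sign.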

How the results depend on the processing

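The replicate block leaves every log2 difference unchanged in this balanced layout and alters only its error, so no result could reverse. For JQ1 against DMSO it moved the members called from 0 to 3, and for both drugs from 2 to 12. The combination against rapamycin went from 0 to 6, the JQ1 average from 3 to 7 and the rapamycin average from 0 to 7. These pairings come from the titles' replicate numbers. Without a filter 0 were called for both drugs and 0 for the JQ1 average, with centred arrays 1 for the JQ1 average, and with a trended robust variance 4 for both drugs. The non-normalized table gave 5 for both drugs with its arrays matched. With the block added, a setting chosen after seeing the data, it gave 5 for JQ1, 5 for rapamycin, 15 for both drugs, 8 for the combination against rapamycin, 13 for the JQ1 average and 10 for the rapamycin average. The shares of all genes called are not given here for matched arrays or the trended variance. Under the non-normalized table's own array names the medians were −0.575 for rapamycin and −0.808 for both drugs. The counts were 5 for both drugs (1.66% of all genes) and 1 for the combination against JQ1 (0.227%). They were 0 for the JQ1 average (0.0705%) and 6 for the rapamycin average (2.61%). With the block as well (added after seeing the data) these names gave 5 for JQ1 (3.64% of all genes) and 12 for rapamycin (5.44%). There were 26 for both drugs (19.4%), and the combination gave 12 against JQ1 (7.17%) and 0 against rapamycin (0.0470%). The JQ1 average gave 9 (8.74%) and the rapamycin average 22 (18.5%). There GAR1 turned to 0.067 for the combination against rapamycin and UTP20 to 0.015 for the JQ1 average. Leaving out 1 array at a time called 0 to 1 members for both drugs and 0 to 2 for the JQ1 average. The medians then ran from −0.442 to 0.081 for JQ1, from −0.536 to −0.027 for rapamycin (highest without rapamycin replicate 2), from −0.339 to −0.059 for the JQ1 average (highest without JQ1 replicate 2), from −0.501 to −0.163 for the rapamycin average (highest without combination replicate 2), from −0.834 to −0.273 for both drugs, from −0.660 to −0.122 for the combination against JQ1, from −0.515 to 0.056 against rapamycin and from −0.370 to 0.241 for the interaction. The interaction median was 0.213, 0.241 and 0.212 without DMSO replicate 2, JQ1 replicate 1 and rapamycin replicate 1, and the median against rapamycin was 0.056 without combination replicate 2. The causes were not tested. Signals near the floor, as for UTP20, POLR1A, POLR1B and MYBBP1A, limit what can be resolved, as do 2 arrays per group.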
